A study of Homo sapiens with 6 samples.

Results

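GABA, the main inhibitory transmitter of the adult brain, is made from glutamate by glutamate decarboxylase, which GAD1 and GAD2 encode, and is broken down by the transaminase ABAT. It acts on GABA-A receptors, chloride channels built from subunits such as GABRA3 and GABRD, and on GABA-B receptors, which couple to G proteins and need both GABBR1 and GABBR2. Gephyrin, the product of GPHN, anchors GABA-A and glycine receptors at inhibitory synapses. These 8 genes were looked up by symbol among the 58395 genes of the count table, and each symbol matched 1 row. All were examined in 6 RNA-seq libraries of SH-SY5Y, a human neuroblastoma line.

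Of the libraries, 3 were labelled Tau (overexpression of the 0N4R isoform from pcDNA3.1) and 3 were labelled control (empty vector). Both groups were transfected with Lipofectamine and then differentiated, first in retinoic acid (10 µM, 5 days) and afterwards in BDNF (50 ng/mL, 15 days). The share of cells that carried the plasmid is not given in the sources used here. The labels do not say whether the replicates came from separate cultures, so every p measures the spread between these libraries, which may be technical. The design asks whether more Tau goes with another transcriptome.

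Library totals ran from 27945481 to 31687213 reads in the 3 libraries labelled Tau and from 28212396 to 31706415 in the 3 labelled control. MAPT, the Tau gene, was not higher under the Tau label: it had 34.6, 32.6 and 34.6 CPM (reads scaled to a common library size, with TMM factors) in the libraries labelled Tau, against 34.8, 51.9 and 41.5 CPM in those labelled control (log2 fold change -0.33, SE 0.18, adjusted p = 0.239, edgeR), and with the GC trend described below removed it was called lower (-0.55, adjusted p = 0.0987, edgeR). It was -0.06 (adjusted p = 0.903, edgeR) with the mitochondrial share of the counts as a covariate. Whether reads of the plasmid were counted for MAPT was not tested, so each direction below is that of the labels. Mitochondrially encoded genes took 45.8 to 57.8% of the counts in the libraries labelled Tau and 30.5 to 45.6% in those labelled control. Every library labelled Tau thus had a larger share than every library labelled control. The nearest were Tau replicate 1 (45.83%) and control replicate 3 (45.64%). Share and label therefore go together in these 6 libraries, and values with the share as a covariate cannot tell them apart. Log2 fold changes of all tested genes also correlated with GC content across genes, which are not independent replicates (Spearman 0.47). By library, the deviation of genes from their mean over the 6 libraries correlated with GC at 0.43, 0.26 and 0.32 (Spearman) under the Tau label. Under the control label the values were -0.52, -0.37 and 0.12, so control replicate 3 leaned the same way as the libraries labelled Tau. Differences were tested over the whole table with edgeR's quasi-likelihood test, and a gene is called at a Benjamini-Hochberg adjusted p under 0.1 with an absolute log2 fold change over 0.5. Values with the mitochondrial share as a covariate or the GC trend removed are given, for the GABA genes, MAPT and the called genes of the pathway that are named, where they end a call, turn a sign or move a value by over 1.5 times.

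Markers of the line were present in both groups. The summed level of 8 noradrenergic neuroblastoma markers was 1112 to 1232 CPM in the libraries labelled Tau and 1258 to 1553 CPM in those labelled control, with the transcription factors HAND2 and ISL1 at 177 CPM or more throughout and tyrosine hydroxylase (TH) at 0.851 CPM or less. Of the 7 tested, 2 were called lower, DBH among them, and SLC18A2 was called higher. Astrocyte markers summed to 1.98 to 2.55 CPM in the libraries labelled Tau and 1.11 to 1.70 CPM in those labelled control, with GFAP at 0. Schwann and oligodendrocyte markers summed to 3.56 to 4.26 CPM under the Tau label and 1.84 to 2.38 CPM under the control label, with SOX10 and MAG at 0 and ERBB3 called higher. Mesenchymal neuroblastoma markers summed to 21.1 to 28.6 CPM under the Tau label and 14.1 to 16.8 CPM under the control label, with PRRX1 at 0 and COL1A1 called higher. The part of these shifts in the changes of GABA genes was not tested, and in bulk RNA fewer cells of a type and less RNA per cell cannot be told apart.

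Of the 8 genes, 7 had enough reads to be tested, and 3 of these (GAD1, GABBR2 and GABRD) were called higher in the libraries labelled Tau. The 3 genes were also those whose libraries labelled Tau all lay above all control libraries, a pattern that 16.1% of all tested genes had. None was called lower by edgeR, DESeq2 or limma-voom, and none was lower at an unadjusted p under 0.05 in edgeR. Over all 16778 tested genes, 9.37% were called higher and 8.42% lower, 17.8% in either direction. The median log2 fold change was 0.21 over the 7 GABA genes and -0.03 over all tested genes. GABBR2 passed the low-count filter only through the libraries labelled Tau, where it is high. Its place among the 7, its call and its separation of the groups are therefore not independent of that filter. Without control replicate 1, GABBR2 was the 1 GABA gene still called. Calls fell over the whole table in that setting, to 179 higher and 71 lower of 17028 tested genes.

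The sequences around an annotated start of GAD1 and of both GABA-B receptor genes are shown because GAD1 and GABBR2 were called higher while GABBR1, the partner of GABBR2, was not. They come from RefSeq on GRCh38.p14, each from 250 bases before to 50 after that start, in the direction of the gene. The windows of GAD1 and GABBR1 lie inside the GENCODE spans of these genes (170813213 to 170861151 and 29555629 to 29633976), not at their outermost start. Which start these cells use was not tested. Capitals mark the GC box, GGGCGG, and the cAMP response element, TGACGTCA, on either strand, and GC boxes that overlap run together.
GAD1, chr2:170816637-170816936, plus strand: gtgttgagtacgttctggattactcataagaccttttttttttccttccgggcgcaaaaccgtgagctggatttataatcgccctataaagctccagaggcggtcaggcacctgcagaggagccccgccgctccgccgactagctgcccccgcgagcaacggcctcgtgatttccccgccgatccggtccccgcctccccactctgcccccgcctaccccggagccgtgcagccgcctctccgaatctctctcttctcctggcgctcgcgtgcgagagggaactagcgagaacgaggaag
GABBR2, chr9:98708886-98709185, minus strand: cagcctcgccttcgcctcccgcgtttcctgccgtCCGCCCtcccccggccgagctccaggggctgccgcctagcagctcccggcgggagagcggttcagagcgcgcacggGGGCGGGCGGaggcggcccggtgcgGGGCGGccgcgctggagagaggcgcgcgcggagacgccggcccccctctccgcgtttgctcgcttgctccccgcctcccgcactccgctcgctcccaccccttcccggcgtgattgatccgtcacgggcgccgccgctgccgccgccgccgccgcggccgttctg
GABBR1, chr6:29627964-29628263, minus strand: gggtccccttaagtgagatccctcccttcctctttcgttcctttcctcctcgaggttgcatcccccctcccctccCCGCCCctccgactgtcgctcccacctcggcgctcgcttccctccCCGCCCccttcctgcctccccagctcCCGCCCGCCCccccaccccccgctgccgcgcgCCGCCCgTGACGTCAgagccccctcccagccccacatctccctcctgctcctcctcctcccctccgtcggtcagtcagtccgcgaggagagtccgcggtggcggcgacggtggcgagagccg

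The GABBR2 window held 50 CG dinucleotides and 79.0% GC, against 29 and 72.7% for GABBR1 and 29 and 61.7% for GAD1, where the median of 35116 RefSeq windows of this length was 14 and 58.7%. GC boxes numbered 4 in the GABBR2 window and 5 in that of GABBR1, and the letters were not found in that of GAD1. At least 1 was present in 15786 of the 35116 windows. The cAMP response element was found once, in the GABBR1 window, and in 1.8% of all windows (649). Windows were matched for 6 of the 8 genes, all but GABRA3 and GABRD. A match describes the letters of these windows only.

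GABBR2 changed by the largest fold of the 7. The subunit carries the receptor to the cell surface and couples it to the G protein. Its reads numbered 29, 32 and 21 in the libraries labelled Tau, against 5, 2 and 5 in those labelled control, which is 0.974, 1.35 and 0.770 CPM against 0.155, 0.0472 and 0.170 CPM. Every library labelled Tau thus lay above every control library, but the gene was scarce in both groups and met the low-count filter only in the libraries labelled Tau. Its mean was 1.03 ± 0.291 CPM under the Tau label and 0.124 ± 0.0670 CPM under the control label (SD, n = 3 each), and the log2 fold change was 3.08 (SE 0.48, 95% interval 2.04 to 4.13, adjusted p = 0.00761, edgeR), or 8.46-fold.

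Counting error is wide at such depth. Scaled to the library total as for CPM but without TMM, the 95% exact binomial intervals of GABBR2 were 0.695 to 1.49, 0.706 to 1.46 and 0.410 to 1.01 in the libraries labelled Tau, against 0.0512 to 0.368, 0.00764 to 0.228 and 0.0576 to 0.414 in those labelled control. These intervals cover counting error only. The interval of Tau replicate 3 overlapped that of control replicate 3 at its lower end, and the other pairs of libraries across the groups did not overlap. The call held under all 15 alternatives, with a log2 fold change of 2.46 to 3.37 and an adjusted p of 1.16e-07 to 0.0744. The change was 2.46 (adjusted p = 0.0394) when the mitochondrial share entered as a covariate and 2.99 (adjusted p = 0.0145) when the GC trend was removed, both in edgeR.

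On GRCh38, GABBR2 spans 98288109 to 98708935 of chromosome 9, minus strand. Its exons share 95 bases with the pseudogene SEPT7P7 on the other strand, which held 71, 41 and 56 reads in the libraries labelled Tau and 60, 157 and 61 in those labelled control. The strand setting of the authors' count is not stated, so reads in those bases could belong to either gene. SEPT7P7 itself was not called (log2 fold change -0.32, adjusted p = 0.527, edgeR).

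GABBR1, which holds the GABA binding site of the receptor, was read at far higher counts. It had 19.7, 25.5 and 25.2 CPM in the libraries labelled Tau, against 20.7, 15.6 and 24.7 CPM in those labelled control. The groups overlapped, and the difference was not called (log2 fold change 0.21, SE 0.20, 95% interval -0.23 to 0.65, adjusted p = 0.520, edgeR). The interval leaves room for a change in either direction, upward to beyond the threshold of 0.5, and does not reach the change of GABBR2. The sign turned with the scaling, to -0.12 with library totals in place of TMM and to -0.19 when the mitochondrial share entered as a covariate. With the GC trend removed it was 0.06. Annotated genes that share its exons, OR2I1P and UBD, had 0 reads.

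Since both subunits are needed for a working receptor, their ratio was taken within each library, where no scaling between libraries enters. Per length, GABBR2 reached 5.49, 5.85 and 3.40% of the GABBR1 level (ratio of deposited RPKM) in the libraries labelled Tau, against 0.831, 0.336 and 0.766% in those labelled control. GABBR1 was thus above GABBR2 in every library, and by less in each library labelled Tau than in any labelled control. The log2 ratio of reads averaged -4.51 ± 0.42 in the libraries labelled Tau and -7.34 ± 0.62 in those labelled control (SD, n = 3 each), a difference of 2.83 (SE 0.43). A two-sided exact permutation test gave p = 0.1, the smallest value that 3 against 3 libraries allow. In a least-squares fit that also held the mitochondrial share, an alternative added after the data were seen, the difference was 2.29 (SE 0.53).

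**Figure D1:**
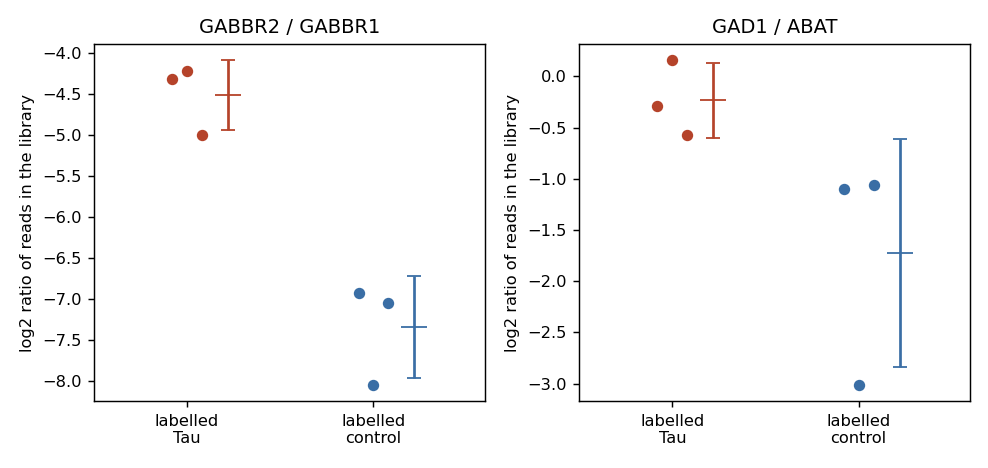
Log2 ratio of the reads of GABBR2 to GABBR1 (left) and of GAD1 to ABAT (right) in each library, with an offset of 0.5 reads. Points are libraries, bars show mean ± SD of the 3 libraries labelled Tau (red) and the 3 labelled control (blue), and in both panels all red points lie above all blue points, with 1 control library at -8.05 and -3.02.

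Of the 2 glutamate decarboxylase genes, GAD1 was the one with reads, and GAD2 had 0 reads in all 6 libraries. A count of 0 allows up to 3 reads, which is 0.0947 to 0.107 CPM of the library total in the libraries labelled Tau and 0.0946 to 0.106 in those labelled control. The upper ends of the 95% exact binomial intervals, of the kind given for GABBR2, were 0.116 to 0.132 CPM of the library total over the 6 libraries. The table also lists 2699 genes with a single read over all 6 libraries, so a 0 in it does not come from a minimum of reads. GAD2 was not tested and no fold is given.

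GAD1 itself had 11.2, 18.7 and 13.8 CPM in the libraries labelled Tau, against 6.801, 2.617 and 8.001 CPM in those labelled control. Again the groups did not overlap, and control replicate 2 was the lowest of the 6. The means were 14.53 ± 3.799 CPM under the Tau label and 5.806 ± 2.826 CPM under the control label (SD, n = 3 each), with a log2 fold change of 1.33 (SE 0.34, 95% interval 0.58 to 2.08, adjusted p = 0.0345, edgeR), or 2.52-fold. The gene lies on chromosome 2 at 170813213 to 170861151 on the plus strand, and a long noncoding RNA on the other strand that shares its exons had 3 reads or fewer in any library.

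Ordered by GAD1, the 6 libraries stood in the same order as by the mitochondrial share of the counts. Control replicate 2, with the lowest GAD1, also had the lowest share, 30.5%, and Tau replicate 2, with the highest GAD1, had the highest, 57.8%. The share also separates the groups, so a change with the share and a change with the label cannot be told apart. With that share as a covariate the log2 fold change of GAD1 was 0.44 (SE 0.24, adjusted p = 0.293, edgeR) and the call ended. It also ended without Tau replicate 2 (1.10, adjusted p = 0.104), without control replicate 1 (1.46, adjusted p = 0.132), and with the GC trend removed together with a replicate block (1.42, adjusted p = 0.127), all in edgeR, and its adjusted p ran from 7.46e-07 to 0.293 over the 15 alternatives. The direction was the same in each.

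ABAT, the mitochondrial enzyme that begins the breakdown of GABA, had 13.7, 16.7 and 20.4 CPM in the libraries labelled Tau, against 14.6, 21.3 and 16.8 CPM in those labelled control. The groups overlapped almost wholly, with a log2 fold change of -0.05 (SE 0.21, 95% interval -0.50 to 0.40, adjusted p = 0.894, edgeR). Its sign is not settled, since 3 of the 15 alternatives turned it, among them the mitochondrial share as a covariate (0.10). The exons of ABAT share 152 bases with TMEM186 on the other strand, which was not called (0.29, adjusted p = 0.475, edgeR).

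Within a library, the GAD1 level per length was 96.5, 132 and 79.6% of that of ABAT (ratio of RPKM) under the Tau label, against 55.1, 14.6 and 56.5% under the control label. GAD1 was below ABAT in all 3 libraries labelled control, and above it in 1 and below it in 2 of those labelled Tau. On reads, the log2 ratio averaged -0.24 ± 0.37 in the libraries labelled Tau and -1.73 ± 1.12 in those labelled control (SD, n = 3 each). The difference of 1.49 (SE 0.68) had an exact permutation p = 0.1, again the smallest possible. It rests in good part on control replicate 2, without which it was 0.85. In a least-squares fit with the mitochondrial share as a covariate, an alternative added after the data were seen, it was 0.36 (SE 0.56), smaller than its own error.

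**Figure D2:**
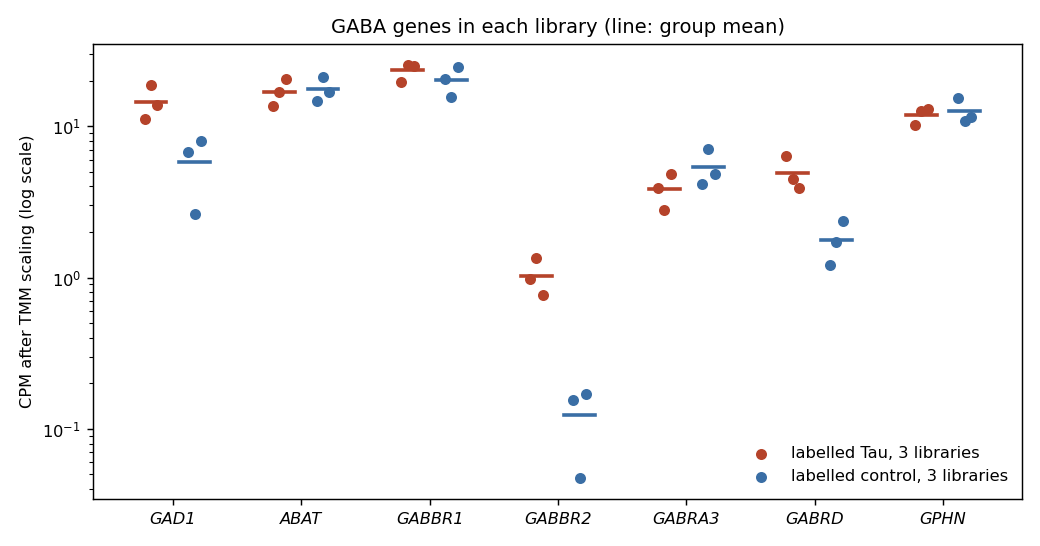
CPM after TMM scaling (log scale) of the 7 GABA genes with reads, with each library as a point and the group mean as a line, for the libraries labelled Tau (red, left) and labelled control (blue, right). The groups separate for GAD1, GABBR2 and GABRD and overlap for ABAT, GABBR1, GABRA3 and GPHN; GAD2 had 0 reads and is not drawn.

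GABRD, the delta subunit of GABA-A receptors outside the synapse that carry tonic currents, was the third gene called higher. It had 6.38, 4.45 and 3.92 CPM in the libraries labelled Tau, against 1.21, 1.72 and 2.35 CPM in those labelled control. The groups did not overlap, and Tau replicate 1 was the highest. The mean was 4.92 ± 1.29 CPM under the Tau label and 1.76 ± 0.573 CPM under the control label (SD, n = 3 each), with a log2 fold change of 1.49 (SE 0.30, 95% interval 0.84 to 2.14, adjusted p = 0.0163, edgeR), or 2.81-fold.

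With 63.1% GC in its longest transcript, GABRD is the most GC-rich of the 8 genes, the others holding 41.5 to 55.8%. With the GC trend removed its log2 fold change was 1.13 (adjusted p = 0.0412, edgeR). It was 1.70 (adjusted p = 0.0220, edgeR) when the mitochondrial share entered as a covariate. The call ended without control replicate 1 (1.28, adjusted p = 0.111) and with the GC trend removed together with a replicate block (1.13, adjusted p = 0.119), both in edgeR, and the adjusted p ran from 1.36e-05 to 0.119 over the 15 alternatives. GABRD lies on chromosome 1 at 2019329 to 2030758 on the plus strand, and no annotated exon of another gene overlaps its own.

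GABRA3, the alpha3 subunit, went the other way in its means without being called. It had 3.93, 2.77 and 4.80 CPM in the libraries labelled Tau, against 4.14, 7.07 and 4.84 CPM in those labelled control. Control replicate 2 stood above the rest and Tau replicate 2 below it, and the ranges overlapped. The log2 fold change was -0.48 (SE 0.28, 95% interval -1.08 to 0.12, adjusted p = 0.266, edgeR). It was -0.23 without control replicate 2 and -0.31 without Tau replicate 2. With the mitochondrial share as a covariate it was 0.0073 (adjusted p = 0.992, edgeR).

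GPHN encodes gephyrin, which also catalyses the last steps of molybdenum cofactor synthesis. It had 10.2, 12.7 and 13.0 CPM in the libraries labelled Tau, against 15.4, 10.9 and 11.6 CPM in those labelled control. The libraries of both groups were mixed in order, and the change was not called (log2 fold change -0.08, SE 0.20, 95% interval -0.51 to 0.35, adjusted p = 0.820, edgeR). The sign was the opposite without Tau replicate 1 (0.05) and without control replicate 1 (0.08). With the mitochondrial share as a covariate GPHN was at -0.35 (adjusted p = 0.387, edgeR).

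**Figure D3:**
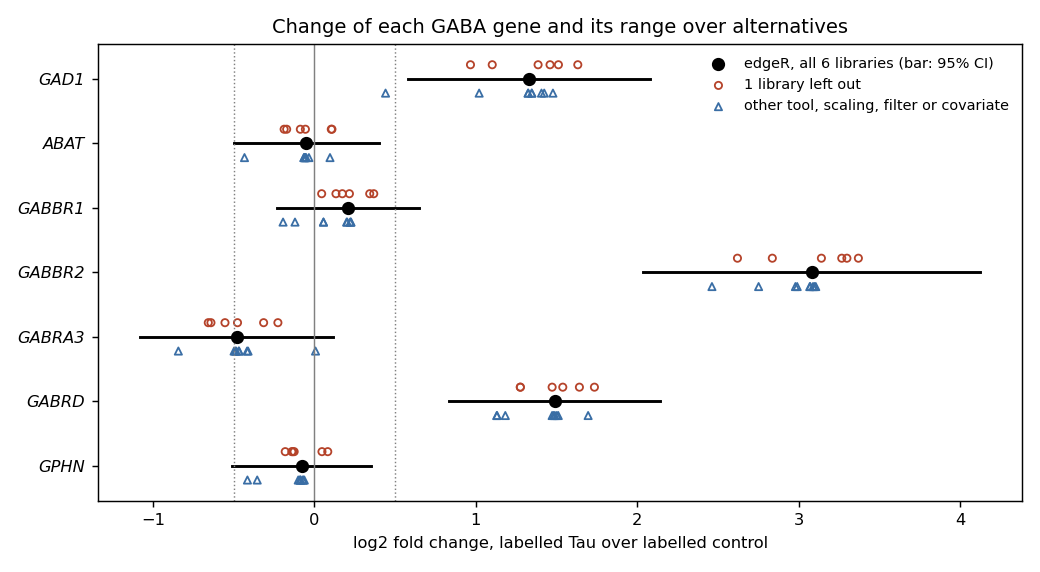
Log2 fold change of the libraries labelled Tau over those labelled control for each tested GABA gene: black points and bars give edgeR with all 6 libraries and its 95% interval, open circles leave out 1 library, and triangles change the tool, scaling, filter or covariate. Dotted lines mark ±0.5; GABBR2 stays at 2.46 or above in all of them, while GAD1 falls to 0.44 with the mitochondrial share as a covariate and ABAT, GABBR1, GABRA3 and GPHN have values on both sides of 0.

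Levels were compared between genes per length, with the deposited RPKM. These values carry no TMM scaling, so the means of a gene are not to be set against each other between the groups. In the libraries labelled Tau the order of the means was GABBR1 (2.45 RPKM), GPHN (1.76), ABAT (1.54), GAD1 (1.54), GABRA3 (0.831), GABRD (0.816) and GABBR2 (0.119). The ranges of GPHN and ABAT, of ABAT and GAD1, and of GABRA3 and GABRD overlapped, and the other neighbours did not. In the libraries labelled control the order was GABBR1 (2.66 RPKM), GPHN (2.35), ABAT (2.08), GABRA3 (1.49), GAD1 (0.759), GABRD (0.359) and GABBR2 (0.0174). There every neighbouring pair overlapped except GABRD and GABBR2. The 2 orders differ in the place of GAD1, which stood above GABRA3 in all 3 libraries labelled Tau and below it in all 3 labelled control.

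**Figure D4:**
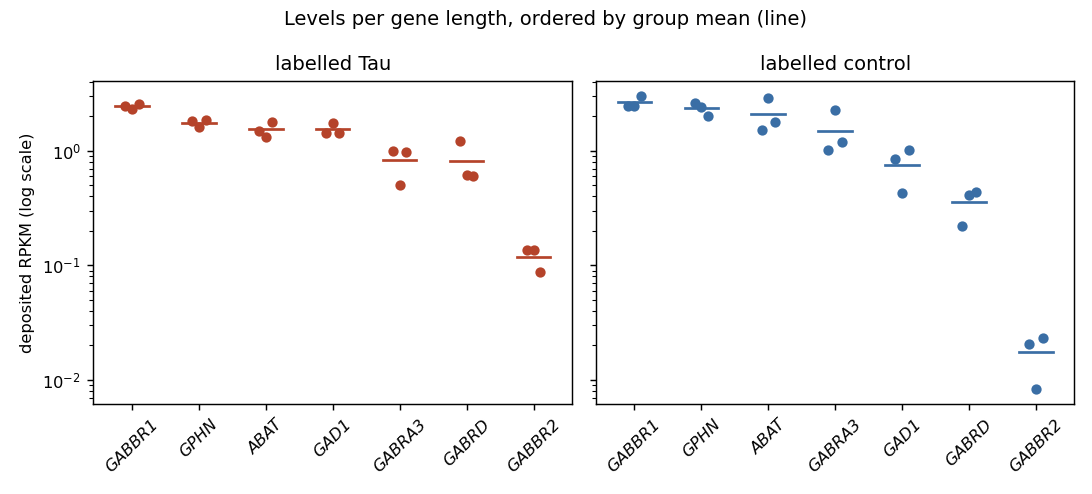
Deposited RPKM (reads scaled by gene length and library total, log scale) of the 7 GABA genes with reads, each library a point and each line a group mean, ordered by the mean within the libraries labelled Tau (left) and labelled control (right). GAD1 stands before GABRA3 on the left and after it on the right, and GABBR2 is last in both.

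By the Pearson correlation of log2 CPM over the 6 libraries, given as a measure of likeness without a test, the genes most like GAD1 were ANKS6 (0.9988), WASH6P (0.9985) and CACNA1E (0.9964), a calcium channel subunit. Those most like GABBR2 were TMEM198B (0.9987), METTL22 (0.9984) and AGER (0.9955). A value over 0.95 was reached by 566 of 12960 genes for GAD1 and by 405 of 12961 for GABBR2. The 6 libraries fall into 2 groups, and a gene that separates them can score high for that reason. How much these values owe to the groups was not tested.

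The other genes of the pathway were counted from 9 lists, in which 102 genes were found and 63 were tested. Of the 63, 8 were called higher (12.7%) and 9 lower (14.3%), against 9.37 and 8.42% of all tested genes, and their median log2 fold change was 0.05. The pathway held calls in both directions, and no test of these shares against those of all genes was made. These counts moved with the libraries used: without Tau replicate 2 they were 3 higher and 4 lower, without Tau replicate 3 4 and 3, without control replicate 1 2 and 1, without control replicate 2 3 and 4, and without control replicate 3 14 and 13, while without Tau replicate 1 they were 6 and 4. Counts over all tested genes moved too, from 1572 higher and 1413 lower with all 6 libraries. Without Tau replicates 1, 2 and 3 in turn they were 1240 and 732, 657 and 428, and 780 and 422. Without control replicates 1, 2 and 3 in turn they were 179 and 71, 939 and 801, and 2603 and 2541.

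Most other GABA-A subunits had no reads. Of 17 listed, 11 had 0 reads in every library, among them GABRA2, GABRA4 and GABRB2. Of the 4 tested, none was called higher and 1 was called lower. GABRG3, a gamma subunit, was not called (0.40, adjusted p = 0.519), nor were GABRP (-0.78, adjusted p = 0.192) and GABRQ (0.0034, adjusted p = 0.995), all by edgeR. GABRA3 was thus the alpha subunit with most reads, since GABRA5 stayed at 0.142 CPM or less.

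Among 15 partners and effectors of the GABA-B receptor, 10 were tested, none was called higher and 2 were called lower. RGS7, which shortens G protein signals to potassium channels, had 8.996, 10.92 and 8.215 CPM in the libraries labelled Tau, against 16.88, 23.44 and 14.10 CPM in those labelled control (log2 fold change -0.95, SE 0.22, adjusted p = 0.0247, edgeR). KCNJ9, a subunit of those channels, was lower too (-1.19, SE 0.37, adjusted p = 0.0626, edgeR), at 0.546 to 0.660 CPM under the Tau label and 1.02 to 2.12 CPM under the control label. The channel subunit KCNJ6 had 0 reads. Calls ended under 3 of 15 alternatives for RGS7 and under 8 for KCNJ9. Among them was the mitochondrial share as a covariate, where RGS7 was at -0.66 (adjusted p = 0.162) and KCNJ9 at -0.46 (adjusted p = 0.524) in edgeR.

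GABA transport and the supply of glutamate held the most calls. Of 11 tested genes, 3 were higher and 2 lower. SLC6A12, the betaine and GABA transporter, had 1.24, 1.51 and 1.10 CPM in the libraries labelled Tau, against 0.433, 0.401 and 0.375 CPM in those labelled control (log2 fold change 1.66, SE 0.32, adjusted p = 0.0147, edgeR). The vesicular GABA transporter SLC32A1 had too few reads to be tested, with 0.168 to 0.671 CPM in the libraries labelled Tau and 0.124 to 0.204 CPM in those labelled control.

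GLS2, a glutaminase, which makes the glutamate that GAD1 uses, had 8.56, 10.3 and 7.48 CPM in the libraries labelled Tau, against 3.71, 3.23 and 4.09 CPM in those labelled control, without overlap (log2 fold change 1.26, SE 0.22, adjusted p = 0.00920, edgeR). The glutamine importer SLC38A1 had 84.2, 105 and 127 CPM in the libraries labelled Tau, against 247, 252 and 239 CPM in those labelled control (-1.22, SE 0.19, adjusted p = 0.00761, edgeR). The calls of GLS2, SLC6A12 and SLC38A1 held under all 15 alternatives. ALDH5A1, which takes the product of ABAT on to succinate, was not called (-0.25, adjusted p = 0.373, edgeR).

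SLC12A5, the chloride exporter that makes GABA inhibitory in mature neurons, was the 1 of 5 tested chloride transporters that was called. It had 3.09, 5.08 and 4.99 CPM in the libraries labelled Tau, against 2.66, 2.50 and 2.69 CPM in those labelled control (log2 fold change 0.74, SE 0.26, adjusted p = 0.0829, edgeR). The groups did not overlap, yet the call ended under 10 of 15 alternatives. It was 0.42 (adjusted p = 0.439) with the mitochondrial share as a covariate, against 0.51 (adjusted p = 0.247) with the GC trend removed, both in edgeR. The importer SLC12A2 was at 2.31 to 2.55 CPM under the Tau label and 2.55 to 4.33 CPM under the control label and was not called (-0.53, adjusted p = 0.197, edgeR).

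Of 15 tested genes of the inhibitory synapse scaffold and of receptor trafficking, 3 were higher and 1 was lower. SHISA7, an auxiliary protein of GABA-A receptors, had 3.53, 4.12 and 2.93 CPM in the libraries labelled Tau, against 0.989, 0.566 and 2.18 CPM in those labelled control (log2 fold change 1.53, SE 0.40, adjusted p = 0.0375, edgeR). IQSEC3, which binds gephyrin (0.90, SE 0.26, adjusted p = 0.0476), and the adhesion protein NLGN2 of inhibitory synapses (0.53, SE 0.19, adjusted p = 0.0948) were also higher, and TRAK2, a kinesin adaptor that binds GABA-A receptors, was lower (-0.84, SE 0.18, adjusted p = 0.0184), all in edgeR. Calls ended under 4 of 15 alternatives for SHISA7, 8 for IQSEC3, 10 for NLGN2 and 2 for TRAK2. With the mitochondrial share as a covariate, SHISA7 was at 0.92 (adjusted p = 0.207), IQSEC3 at 0.43 (adjusted p = 0.393) and NLGN2 at 0.23 (adjusted p = 0.508), none called by edgeR. With the GC trend removed, the calls of IQSEC3 (0.57, adjusted p = 0.160) and NLGN2 (0.20, adjusted p = 0.467) ended in edgeR.

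**Figure D5:**
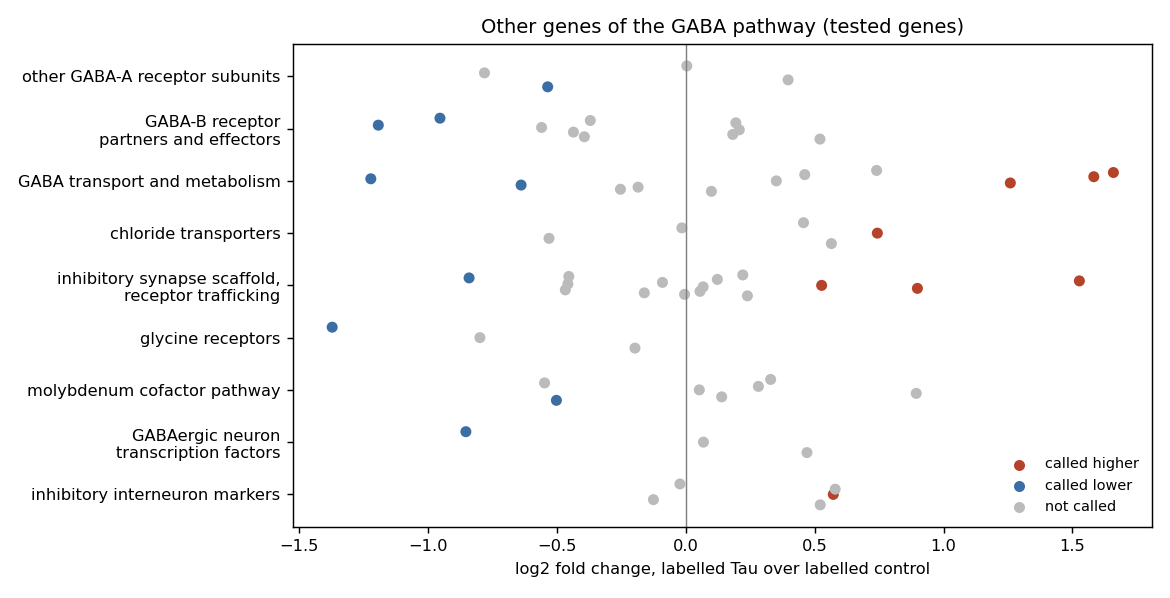
Log2 fold change of the libraries labelled Tau over those labelled control for the tested genes of 9 lists of the GABA pathway; each point is a gene, red when called higher, blue when called lower and grey when not called. Points of both colours appear, with 8 genes higher and 9 lower of 63.

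Glycine receptors share gephyrin with GABA-A receptors, and of their list 3 genes were tested. The glycine transporter SLC6A9 was lower by edgeR (adjusted p = 0.0172), at a log2 fold change of -1.37 (SE 0.28), with 2.35, 4.03 and 3.74 CPM in the libraries labelled Tau, against 8.50, 6.20 and 11.5 CPM in those labelled control, and its call ended under 1 of 15 alternatives. The receptor subunit GLRB was not called (-0.20, adjusted p = 0.633), and GLRA1 and GLRA2 had 0 reads. In the molybdenum cofactor pathway, to which gephyrin belongs as an enzyme, 7 genes were tested and MARC1, a molybdenum enzyme of mitochondria, was called lower by edgeR (-0.50, SE 0.18, adjusted p = 0.0973), a call that ended under 10 of 15 alternatives. These included the mitochondrial share as a covariate (-0.49, adjusted p = 0.242) and the GC trend removed (-0.44, adjusted p = 0.140), both in edgeR.

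Genes that mark GABAergic neurons gave no uniform picture. The transcription factors DLX2 and NKX2-1 had 0 reads, and DLX1 and LHX6 stayed at 0.257 CPM or less. GATA2, which noradrenergic neuroblastoma cells also express, was at 227 to 252 CPM in the libraries labelled Tau and 199 to 249 CPM in those labelled control and was not called. By edgeR, SOX6 was lower with an adjusted p of 0.0954 (log2 fold change -0.85, SE 0.31). DLX6 had 6.14, 4.71 and 4.25 CPM in the libraries labelled Tau, against 3.15, 3.58 and 4.19 CPM in those labelled control, and was not called (0.47, adjusted p = 0.209, edgeR). Of 9 interneuron markers, 5 were tested, 1 was called higher and none lower, and SST, CALB2 and CCK had 0 reads. VIP (-0.02, adjusted p = 0.940), LAMP5 (-0.13, adjusted p = 0.637), CALB1 (0.52, adjusted p = 0.283) and RELN (0.58, adjusted p = 0.114) were expressed and not called by edgeR. The neuropeptide NPY was called higher (0.57, SE 0.20, adjusted p = 0.0906, edgeR), with 282, 214 and 212 CPM in the libraries labelled Tau, against 168, 126 and 182 CPM in those labelled control. Calls ended under 9 of 15 alternatives for SOX6 and 10 for NPY. With the mitochondrial share as a covariate SOX6 was at -1.12 (adjusted p = 0.116) and NPY at 0.49 (adjusted p = 0.195), while with the GC trend removed they were at -0.66 (adjusted p = 0.194) and 0.34 (adjusted p = 0.248), all in edgeR.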

How the data were processed

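RNA of 6 libraries was measured by poly(A) RNA-seq. The study's methods name a NEBNext Ultra II Directional kit and the labels a TruSeq stranded mRNA kit. Per the labels and methods, runs were converted with bcl2fastq 1.8.4, reads were aligned to GRCh38 with TopHat2 2.1.0, and the deposited counts per gene were made with featureCounts 1.5.0 (strand setting not given in the sources used here). The authors made the deposited RPKM values from these counts by the library total and a gene length. Counts were tested here in R 4.3.3 with edgeR 4.0.16 (TMM, filterByExpr, quasi-likelihood), fitted over all 16778 genes kept. SE is the log2 fold change divided by the root of F. RPKM served to compare genes with each other, within a library or by the means and ranges of a group, and not to compare a gene between the groups. GC content is that of the longest GENCODE transcript (99.3% of tested genes), and its trend was removed by a lowess offset (span 0.3). Alternatives used DESeq2 1.42.0, limma-voom (limma 3.58.1), other scalings, no filter, a replicate block, covariates and 1 library left out. Tested on simulated data of these depths, edgeR found 53% of the genes given a log2 change of 1, 93% of those given 2, and 19 false ones among 16778. With a GC trend simulated as well, the same test gave 4370 false calls, and 19 with the trend removed. That trend had a slope set in advance, the same in every library labelled Tau, and was not fitted to these data. Neither count thus estimates the false calls in these data, and the removal was tried only on a trend that had been built in. The members, lists and alternatives were chosen with earlier results of these data known. Named are all members, MAPT, with the exception below up to 3 called genes per list and direction with the smallest p, and the 3 genes most like GAD1 and GABBR2; other genes were named after their values were seen. RPM values, brain data and blots were not used here. Some genes of the lists enter the counts but are not reported here by name.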

Additional observations from a re-analysis of the deposited data

How the results depend on the processing

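Over 15 alternatives for each of the 7 tested genes, 91 of 105 values kept their direction and side of the thresholds, 6 lost the call and 8 turned sign, all 8 in genes that were not called. When the mitochondrial share entered as covariate, the log2 fold change turned to 0.10 for ABAT, -0.19 for GABBR1 and 0.0073 for GABRA3, and with library totals to -0.12 for GABBR1. With 1 library left out, ABAT ran from -0.19 to 0.11 and GPHN from -0.18 to 0.083. The count of GABA genes called higher was 1 with the GC trend removed and a replicate block, and 1 to 3 with 1 library left out. For the other pathway genes, the counts higher and lower were 3 and 15 with library totals, which shift all genes by a median of -0.34, 5 and 5 with the GC trend removed, 2 and 3 with that and a replicate block, 2 and 3 when the mitochondrial share entered as covariate, 15 and 10 with no low-count filter, and 2 to 14 and 1 to 13 with 1 library left out. Counts over all tested genes moved as well. They were 559 higher and 2886 lower with library totals, and 1097 and 688 with the GC trend removed. With that and a replicate block they were 434 and 178, and with the mitochondrial share as covariate 721 and 601. With no low-count filter they were 2185 and 1923, and with 1 library left out 179 to 2603 and 71 to 2541. Over all genes, 16.2% of calls were higher with library totals and 52.7% with TMM. The cause of these shifts was not tested.

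A replicate block alone called 3 GABA genes higher and, of the other pathway genes, 5 higher and 5 lower. Over all tested genes it called 1286 higher and 925 lower. Same-numbered libraries did not deviate together (correlations of -0.15, -0.46 and 0.17), so the numbers were not taken to pair them. Differently numbered libraries of the 2 groups ran from -0.36 (Tau replicate 1 with control replicate 3) to 0.44 (Tau replicate 1 with control replicate 2). Whether libraries of the 2 groups are linked in another way was not tested. The ratio of GABBR2 to GABBR1 differed by 2.29 to 3.07 and that of GAD1 to ABAT by 0.36 to 1.82 on the log2 scale over their alternatives, the lowest of each with the mitochondrial share as a covariate. Depth limits GABBR2, with 2 to 5 reads in each control library, and GAD2, with none.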
